A study of Rattus norvegicus with 6 samples.

Results

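Complement and coagulation proteins are plasma proteins that the liver makes, and 39 of their genes were chosen by name. Of these, 34 had at least 1 array probe whose RefSeq accession matched the rat symbol, with 58 probes in all, out of 15284 symbols on the array, and all 34 were measured. The other 5, C5, C8g, F5, F11 and F13b, had no matched accession and were not analysed here. By role, 15 of 17 complement genes were measured, 10 of 13 coagulation and fibrinolysis genes, and 9 of 9 genes of inhibitors and anticoagulants.

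Gene expression was measured in the livers of 6 male Sprague-Dawley (Crl:CD(SD)) rats, 1 array per animal. The control group was 3 rats given corn oil, and the treated group was 3 rats dosed with 200 mg/kg/day of bromodichloromethane, one of the trihalomethanes formed when water is chlorinated. The question was how a chemical changes liver gene expression. All rats were bought at 5 weeks of age and ate a basal diet, and the labels give both 28 days and 9 weeks as the time, so the length of dosing is not settled.

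Complement is a cascade of plasma enzymes and their substrates that is triggered by antibody, by surface sugars or by slow turnover on surfaces. All 3 routes meet at C3 and end in a pore, the membrane attack complex. Coagulation is a cascade of serine proteases that ends with thrombin cutting fibrinogen into fibrin, and plasmin dissolves the clot. Serpins and alpha-2-macroglobulin inhibit proteases of these systems, and the protein C pathway restrains coagulation. Hepatocytes are the main source of most of these proteins.

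Arrays had 75th percentiles from 670.1 to 825.4 units of processed fluorescence, and no probe was saturated. All 34 members were well above background on all 6 arrays. The 3 corn oil arrays and treated replicate 1 shared slide 1, and treated replicates 2 and 3 were on slide 2, scanned separately. Hepatocyte markers were present, with summed relative signals of 3154 to 3472 in corn oil livers and 2704 to 3077 in treated livers over 7 of 7 genes. These sums were lower in every treated animal, and 6 of the 7 genes had lower means. By limma 2 of them passed as lower, Cps1 by 0.62 and Serpina1 by 0.50 on the log2 scale (adjusted p = 0.027 and 0.023). Red cell markers summed to 525 to 780 and 350 to 502 (5 of 7 genes), lymphocyte and neutrophil markers to 3.46 to 3.72 and 4.46 to 5.5 (5 of 7), and bile duct markers to 1.75 to 1.91 and 2.58 to 3.74 (5 of 6). Of the bile duct genes Epcam alone lay apart, at 1.2, 1.14 and 0.817 in corn oil livers and 1.94, 2.48 and 2.38 in treated livers. Krt7, Krt19, Cftr and Spp1 overlapped between the groups. Endothelial markers summed to 44.5 to 47.4 and 37.3 to 39.9 (4 of 7), and platelet markers to 1.52 to 1.79 and 1.16 to 1.36 (5 of 6). Most of the endothelial sum was Kdr, at 36.1, 38.0 and 38.7 against 33.1, 30.5 and 31.7, which did not pass by limma (adjusted p = 0.12). Lyve1 was lower, at 5.54, 6.41 and 5.16 against 3.81, 3.89 and 3.88 (adjusted p = 0.03 by limma). Pecam1 and Tek overlapped between the groups. Macrophage and stellate cell marker sums overlapped between the groups, at 109 to 146 and 99.9 to 132 for 7 of 7 macrophage genes and 11 to 15.1 and 10.2 to 12 for 7 of 7 stellate cell genes. No marker was at 0, and Cd3e was not well above background in corn oil livers. The part of these shifts in the results was not tested, and in whole liver RNA fewer cells of a type and less RNA per cell cannot be told apart.

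Signals are given as relative signals, that is, as multiples of the 75th percentile of the same array, and differences are treated minus corn oil on the log2 scale. Of the 34 measured members, 13 were lower in treated livers at an adjusted p of 0.05 by limma, none was higher and 21 did not pass. Over all 28995 features, 3.41% were lower and 5.96% higher, 9.36% in all. At an unadjusted p of 0.05, 28 members were lower and 0 higher. The share of all features at that threshold is not given here. This count and a later one for other lists therefore lack a background. The median log2 difference was -0.41 over the members and 0.0014 over all features, and 33 of the 34 members were below 0. For 30 members every treated animal lay below every corn oil animal, and for 0 members above, where the groups did not overlap for 16.0% and 18.4% of all features in these directions. Members are bright, and among the 1160 features at least as bright as the median member 7.24% were lower, 15.0% were higher and 27.3% lay apart in the lower direction, with a median of 0.03.

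These falls are relative to the rest of the array. Against the spiked-in control transcripts, the median of all features moved up to 0.48 and that of the members to 0.07, A2m was the 1 member still lower, F7 was higher (adjusted p = 0.042), and 1.1% of all features were lower and 44.6% higher. The calls also rest on few animals. The count of lower members was 4, 0 and 7 without corn oil replicates 1, 2 and 3 and 5, 0 and 0 without treated replicates 1, 2 and 3. In these fits the median of the members lay between -0.46 and -0.36 and that of all features between -0.01 and 0.01.

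**Figure D1:**
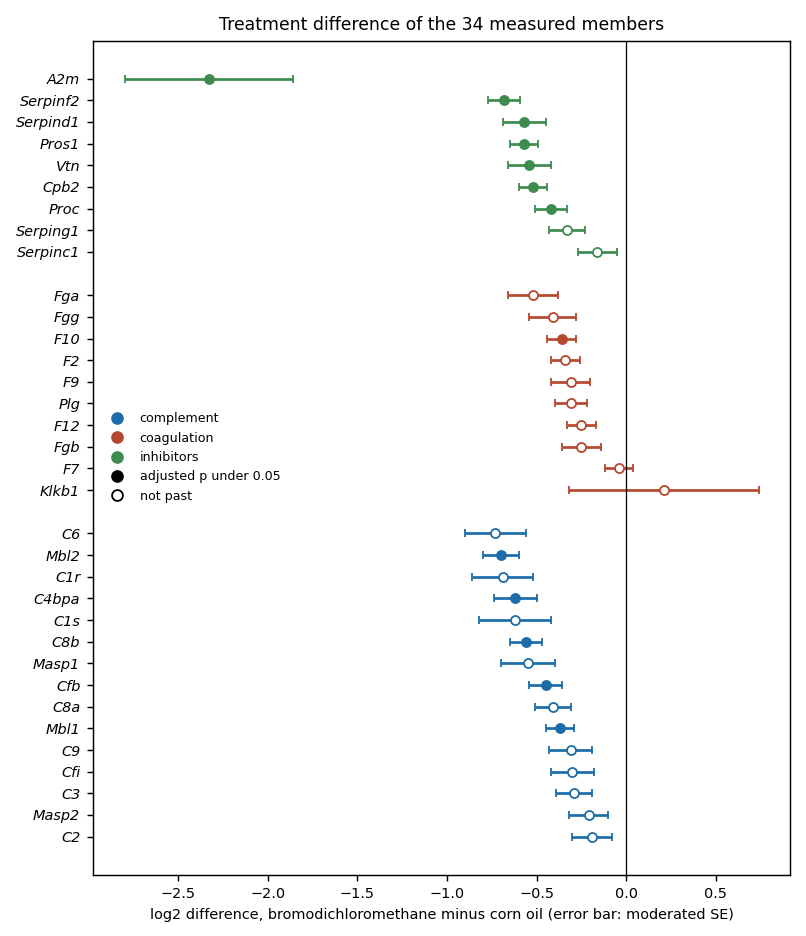
Log2 difference, bromodichloromethane minus corn oil, of each of the 34 measured members with its moderated standard error, 3 animals per group, on the scale of the 75th percentile of each array. Filled points mark the 13 members past an adjusted p of 0.05, which are 7 inhibitors, 5 complement genes and 1 coagulation gene; with spike-in scaling 19 of the members change sign.

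The role groups were compared by their counts and medians. Inhibitors had 7 of 9 members lower and a median of -0.54, complement 5 of 15 and -0.45, and coagulation 1 of 10 and -0.31. All treated animals lay below all corn oil animals for 8 of 9 inhibitors, 14 of 15 complement genes and 8 of 10 coagulation genes. The order of the 3 medians was the same on slide 1 alone, which holds 1 treated animal, at -0.59, -0.47 and -0.37. Slide 1 is a part of the same arrays and no independent check. Spike-in scaling gave -0.06, 0.03 and 0.18. It moves the differences of all genes by the same amount, so it cannot change the order. Quantile normalization moved the coagulation median to -0.13, with inhibitors at -0.56 and complement at -0.47. The difference between the role groups was not tested.

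By animal, the median complement member stood at -0.47, -0.35 and -0.49 from the corn oil mean in treated replicates 1, 2 and 3. Inhibitors stood at -0.59, -0.51 and -0.41, and coagulation genes at -0.37, -0.31 and -0.29. Corn oil animals spread from -0.11 to 0.13 for complement, from -0.06 to 0.08 for inhibitors and from -0.09 to 0.10 for coagulation. Every treated animal was therefore below every corn oil animal in all 3 medians. Treated replicate 1, the treated animal on slide 1, had the lowest treated value for 21 of the 34 members, replicate 2 for 8 and replicate 3 for 5.

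**Figure D2:**
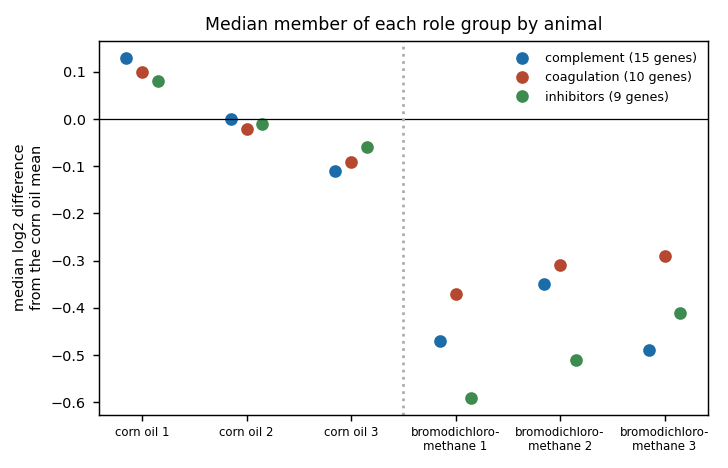
Median log2 difference from the corn oil mean over the members of each role group, for each of the 6 animals, with signals scaled by the 75th percentile of the array. The 3 treated animals lie between -0.59 and -0.29 and the corn oil animals between -0.11 and 0.13.

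In the recognition stage of complement, the mannose-binding lectin gene Mbl2 fell. Mbl2 encodes a collectin that binds microbial sugars, and its relative signals were 18.2, 18.4 and 16.1 in corn oil livers and 11.4, 10.3 and 10.8 in treated livers. The log2 fall was 0.70 (SE 0.10, adjusted p = 0.016), to 61.7% of the corn oil level. Mbl1, the other mannose-binding lectin gene, measured 36.0, 34.3 and 36.5 against 26.8, 27.9 and 28.3. Its fall was 0.37 (SE 0.08, adjusted p = 0.043), a call that ended with median centring (adjusted p = 0.076). For both lectins the groups lay apart and the spread within each group was small, and Mbl2 kept its call in 3 of the 6 fits that left out 1 animal while Mbl1 kept it in 0.

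The proteases that act with these lectins did not pass. Masp2, which cuts C4 and C2, was at -0.21 (SE 0.11), with 19.8, 19.8 and 20.2 against 15.1, 18.5 and 18.2. Masp1, which activates Masp2 and yields several splice forms, was at -0.55 (SE 0.15, adjusted p = 0.073), with 14.7, 12.1 and 13.3 against 8.29, 11 and 8.26. Its 4 probes disagreed in sign. The brightest and 2 others gave -0.55, -0.59 and -0.36, whereas the remaining probe gave 0.08 with overlapping groups. The probe at -0.59 passed when every probe was tested on its own (adjusted p = 0.026).

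C1r and C1s, the serine proteases of the first component of the classical route, were at -0.69 (SE 0.17, adjusted p = 0.054) and -0.62 (SE 0.20, adjusted p = 0.11). C1r measured 86.4, 81.2 and 61.3 against 43.2, 54.2 and 44.0, and C1s measured 72.0, 69.5 and 50.9 against 33.6, 50.4 and 41.3. Corn oil replicate 3 was the lowest control in both, close to treated replicate 2. Without that animal C1r passed (log2 difference -0.84, adjusted p = 0.0476). Neither gene is counted among the falls.

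C2, which supplies the protease of the classical and lectin C3 convertase, had the smallest difference of the complement genes, at -0.19 (SE 0.11). Its relative signals of 24.5, 22.6 and 20.9 overlapped with 21.8, 19.9 and 18. Cfb, factor B, supplies the protease of the alternative route and lies beside C2 in the genome. It fell by 0.45 (SE 0.09, adjusted p = 0.037), from 473, 437 and 407 to 318, 332 and 312, and its second probe gave -0.42. The Cfb call ended with normexp (-0.34, adjusted p = 0.0506), with quantile normalization (-0.24, adjusted p = 0.13) and without any 1 animal (adjusted p from 0.061 to 0.11). C3, the protein on which all routes act, was at -0.29 (SE 0.10, adjusted p = 0.12), with 774, 675 and 660 against 556, 571 and 595.

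C8b fell among the genes of the membrane attack complex. It encodes the beta chain of C8, and its signals went from 46.0, 48.9 and 48.1 to 34.4, 31.3 and 31.5. The fall was 0.56 (SE 0.09, adjusted p = 0.019), and 2 of the 6 fits without 1 animal kept it. C8a, the alpha chain, lay just outside the threshold at -0.41 (SE 0.10, adjusted p = 0.0501), with 74.5, 67.0 and 63.4 against 49.3, 53.1 and 51.5. C6, which joins the complex after C5, had the largest difference of the complement genes but did not pass, at -0.73 (SE 0.17, adjusted p = 0.054). Its signals were 20.9, 21.2 and 14.4 against 10.3, 12.3 and 11.1, and it passed without corn oil replicate 3 (log2 difference -0.91, adjusted p = 0.033). C9, which forms the pore, was at -0.31 (SE 0.12, adjusted p = 0.18), with 105, 108 and 99.0 against 73.1, 97.1 and 83.8.

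Of the complement regulators, C4bpa fell and Cfi did not pass. C4bpa encodes the alpha chain of C4b-binding protein, a cofactor in the breakdown of C4b. It measured 148, 129 and 116 in corn oil livers and 83.1, 90.5 and 81.3 in treated livers, a fall of 0.62 (SE 0.12, adjusted p = 0.030) that 1 of the 6 fits without 1 animal kept. Cfi, factor I, the protease that cuts C3b and C4b, was at -0.30 (SE 0.12, adjusted p = 0.16), with 488, 421 and 392 against 319, 360 and 373. Quantile normalization left it at -0.07 (adjusted p = 0.65).

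Among the 10 measured coagulation genes 1 passed, F10, whereas 4 passed with normexp and 0 with median centring. F10 encodes factor X, the protease that activates prothrombin. Its signals were 80.6, 83.6 and 87.5 in corn oil livers and 63.9, 66.9 and 64.9 in treated livers. The fall was 0.36 (SE 0.08, adjusted p = 0.0453), and none of the fits that left out 1 animal kept it (adjusted p from 0.084 to 0.13). The F10 call also ended with median centring (adjusted p = 0.087). F7, factor VII, which starts coagulation with tissue factor and is encoded next to F10, was level at 2.52, 2.42 and 2.41 against 2.44, 2.34 and 2.35. Its difference was -0.04 (SE 0.08, adjusted p = 0.78), the smallest of the coagulation genes, and it turned to 0.04 with normexp and to 0.02 with median centring.

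The other vitamin K-dependent clotting factors were F2 and F9. F2, prothrombin, measured 598, 599 and 558 against 446, 471 and 472, with a difference of -0.34 (SE 0.08, adjusted p = 0.056). F9, the factor missing in haemophilia B, measured 85.4, 72.3 and 69.1 against 57.0, 61.3 and 64.4, at -0.31 (SE 0.11, adjusted p = 0.14). For both, every treated animal was below every corn oil animal.

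The fibrinogen genes Fga, Fgb and Fgg encode the 3 chains of the clot substrate and lie side by side on rat chromosome 2. None of them passed. Fga had the largest difference of the coagulation genes, at -0.52 (SE 0.14, adjusted p = 0.074). It was even in treated livers, at 370, 367 and 370, and spread in corn oil livers, at 632, 535 and 439. Fgg was at -0.41 (SE 0.13, adjusted p = 0.11), with 663, 562 and 520 against 388, 452 and 473. Fgb was at -0.25 (SE 0.11, adjusted p = 0.20), with 854, 758 and 696 against 606, 664 and 667, and its second probe gave -0.47. The groups lay apart for all 3 chains, and in each of them corn oil replicate 1 was the highest animal and corn oil replicate 3 the lowest control. Without corn oil replicate 3 Fga passed (adjusted p = 0.0497). Quantile normalization left differences of -0.25 for Fga, -0.01 for Fgb and -0.11 for Fgg, and of -0.05 for F2 and -0.02 for C3, which are also among the brightest members.

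The bases upstream of the 3 fibrinogen genes, which are neighbours and make 1 protein, and of the neighbours F10 and F7, of which F10 passed and F7 did not, are printed here from RefSeq, rat build GRCr8. Each run is the 250 bases before a transcript start, 5′ to 3′ on the strand of the gene. Capitals mark letters searched on both strands: CAAAGTCC or CAAAGTTC (HNF4), TTGCNNAA (C/EBP), TTCNNNGAA (STAT3) and CTGGGA (an IL-6 response element core). CTGGGA and TTCNNNGAA can overlap, and a match is a description of letters, not a binding site.
Fga, chr2:170671919-170672168, plus strand: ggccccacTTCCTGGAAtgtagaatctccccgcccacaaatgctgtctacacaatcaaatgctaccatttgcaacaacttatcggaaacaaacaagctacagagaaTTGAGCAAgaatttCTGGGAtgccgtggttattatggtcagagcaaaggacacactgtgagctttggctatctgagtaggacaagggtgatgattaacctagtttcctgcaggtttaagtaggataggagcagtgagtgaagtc
Fgb, chr2:170700876-170701125, minus strand: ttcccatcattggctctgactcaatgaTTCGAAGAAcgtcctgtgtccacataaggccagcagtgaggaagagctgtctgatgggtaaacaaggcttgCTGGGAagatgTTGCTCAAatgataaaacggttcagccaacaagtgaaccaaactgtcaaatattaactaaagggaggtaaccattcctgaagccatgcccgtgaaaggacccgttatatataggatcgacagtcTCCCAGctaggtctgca
Fgg, chr2:170652833-170653082, plus strand: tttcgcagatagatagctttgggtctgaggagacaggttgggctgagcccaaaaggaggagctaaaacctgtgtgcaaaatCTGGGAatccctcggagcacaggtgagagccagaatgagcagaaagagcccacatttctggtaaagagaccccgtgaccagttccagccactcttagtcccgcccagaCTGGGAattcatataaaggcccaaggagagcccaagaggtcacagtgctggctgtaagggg
F10, chr16:83190281-83190530, minus strand: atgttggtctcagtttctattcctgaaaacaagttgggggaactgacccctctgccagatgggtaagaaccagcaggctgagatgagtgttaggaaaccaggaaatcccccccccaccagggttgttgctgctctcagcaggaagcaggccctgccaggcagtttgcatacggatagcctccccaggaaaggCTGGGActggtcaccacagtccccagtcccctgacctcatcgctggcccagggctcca
F7, chr16:83202739-83202988, minus strand: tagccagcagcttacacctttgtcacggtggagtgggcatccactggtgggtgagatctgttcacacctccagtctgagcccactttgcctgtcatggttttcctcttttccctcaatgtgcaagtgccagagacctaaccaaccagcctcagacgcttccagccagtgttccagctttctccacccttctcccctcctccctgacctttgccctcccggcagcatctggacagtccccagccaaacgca

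Fga and Fgb each held a TTGCNNAA, a TTCNNNGAA and a CTGGGA, with the TTGCNNAA beginning 144 and 141 bases before the start. Fgg held CTGGGA at 169 and 61 bases and no other match, F10 held CTGGGA at 58 bases, and F7 held none of the letters. The promoter table had 30 promoters of 29 members, and 25 of these members were measured. Of these 30, TTGCNNAA was in 40.0%, TTCNNNGAA in 20.0%, CTGGGA in 15 of 30 and the HNF4 letters in 0. The shares over all 33469 promoters in the table were 9.22%, 7.67%, 25.7% and 2.01%. TTGCNNAA was upstream of 11 members, of which C4bpa and C8b fell and C1r, C3, C6, C8a, F9, Fga, Fgb, Klkb1 and Serpinc1 did not pass. TTCNNNGAA was upstream of 6 members, of which Pros1 and Vtn fell and C8a, F9, Fga and Fgb did not pass. CTGGGA was upstream of 14 members, of which F10, Mbl1, Proc, Pros1 and Vtn fell and F11 was not measured. The rest, C1r, C3, F9, Fga, Fgb, Fgg, Plg and Serpinc1, did not pass. Mbl2 and Serpinf2, which fell, held none of these letters, and A2m, Serpind1, Cfb and Cpb2, which also fell, were not searched.

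F12, factor XII, and Klkb1, prekallikrein, belong to the contact system. F12 measured 212, 196 and 196 against 169, 163 and 177, at -0.25 (SE 0.08, adjusted p = 0.12). Klkb1 was the 1 member above 0, at 0.21 (SE 0.53, adjusted p = 0.84), and its animals varied within both groups, at 22.2, 21.5 and 49.9 in corn oil livers and 60.5, 35.2 and 17.2 in treated livers. No direction can be given for it, since it stood at -0.23 without treated replicate 1 and at -0.01 without corn oil replicate 2. Plg, plasminogen, the precursor of the enzyme that dissolves fibrin, was at -0.31 (SE 0.09, adjusted p = 0.098), with 432, 396 and 365 against 321, 315 and 327. Its second probe gave -0.49 and passed when every probe was tested on its own (adjusted p = 0.027). Quantile normalization left Plg, by its brightest probe, at -0.15 (adjusted p = 0.29).

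**Figure D3:**
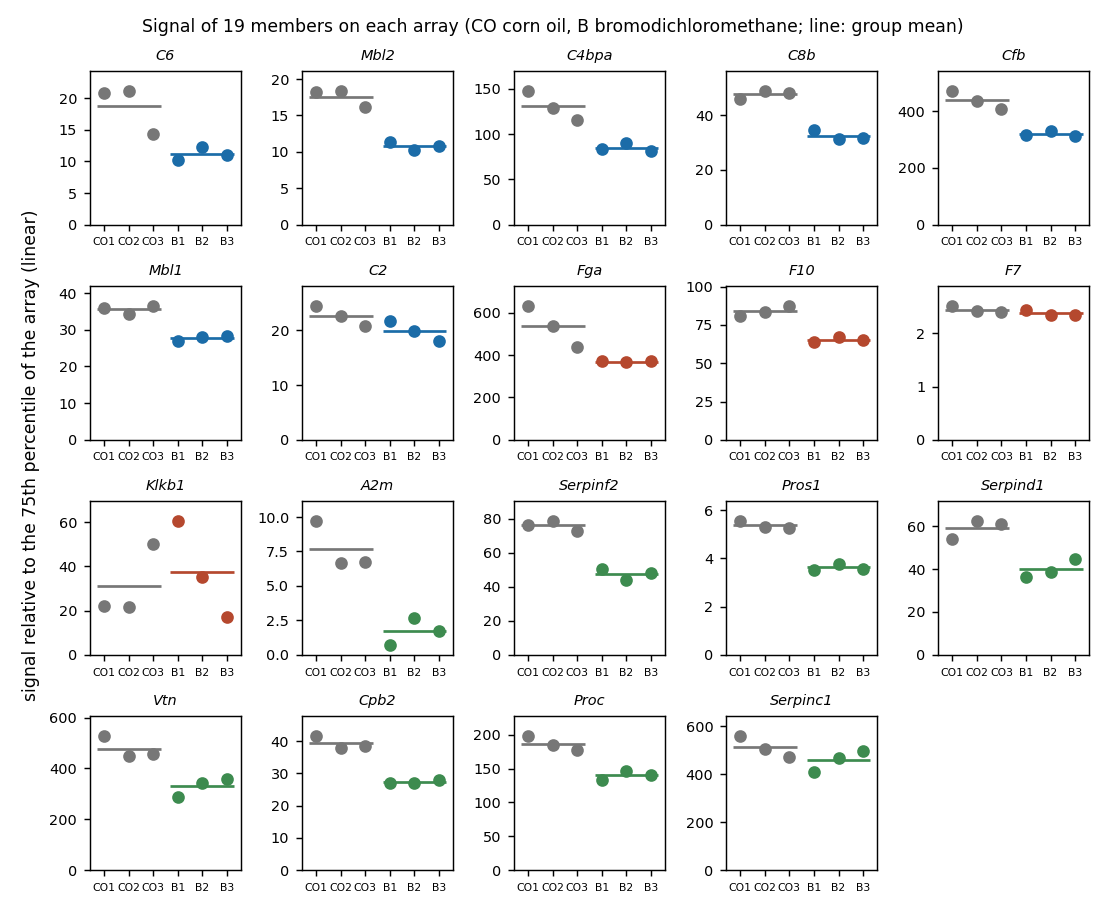
Relative signal, on a linear axis from 0, of 19 members on the 3 corn oil (CO, grey) and 3 bromodichloromethane (B, coloured) arrays, with the group means as lines. The groups lie apart in 15 panels and overlap for C2, F7, Klkb1 and Serpinc1.

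Among the inhibitors, A2m had the largest fall of all members. A2m encodes alpha-2-macroglobulin, a broad trap for proteases that is a strong acute phase protein in the rat. Its relative signals were 9.71, 6.65 and 6.73 in corn oil livers and 0.732, 2.70 and 1.72 in treated livers. It was 5.03-fold lower (log2 difference -2.33, SE 0.47, adjusted p = 0.036), and its other 2 probes gave -2.50 and -2.54. The treated animals varied widely, with the lowest on slide 1. Within slide 1, and with slide as a block, the difference was -3.37, and both rest on that 1 treated animal, since slide 2 held no corn oil array. It was -1.85 with spike-in scaling (adjusted p = 0.022). The call stood without treated replicate 1 (-1.81, adjusted p = 0.040) and ended without any one of the other 5 animals (adjusted p from 0.0549 to 0.096).

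Serpinf2, alpha-2-antiplasmin, the main inhibitor of plasmin, had the smallest p of all members. It went from 76.5, 78.7 and 73.1 to 50.5, 44.3 and 47.9, a fall of 0.68 (SE 0.09, adjusted p = 0.015), and its second probe gave -0.69. Cpb2, a carboxypeptidase that also slows fibrin breakdown by trimming fibrin, fell by 0.52 (SE 0.08, adjusted p = 0.021), from 41.5, 37.9 and 38.5 to 27.1, 27.1 and 28.0. Serpinf2 kept its call in 3 of the 6 fits without 1 animal and Cpb2 in 0 (adjusted p from 0.054 to 0.085).

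Both members in the protein C pathway, Proc and Pros1, fell. Thbd and Procr, genes of the same pathway from the other inhibitor list, were at 0.14 and 0.0 and did not pass. Proc encodes protein C, which inactivates factors Va and VIIIa, and Pros1 its cofactor, protein S. Proc measured 198, 185 and 178 against 133, 146 and 141, a fall of 0.42 (SE 0.09, adjusted p = 0.040), and its second probe gave -0.50. Pros1 measured 5.55, 5.30 and 5.25 against 3.52, 3.77 and 3.58, a fall of 0.57 (SE 0.08, adjusted p = 0.017), and its second probe gave -0.55. The animals of each group lay close together for both genes. Pros1 kept its call in 3 of the 6 fits without 1 animal and Proc in 0 (adjusted p from 0.074 to 0.11), and the Proc call also ended with normexp (adjusted p = 0.0549) and median centring (adjusted p = 0.0514).

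Serpins that inhibit thrombin differed in their calls. Serpind1, heparin cofactor II, fell by 0.57 (SE 0.12, adjusted p = 0.036), from 54.2, 62.4 and 60.9 to 36.4, 38.8 and 44.9, and lost its call with median centring (adjusted p = 0.0535) and without any 1 animal (adjusted p from 0.057 to 0.12). Serpinc1, antithrombin, had the smallest difference of the inhibitors, at -0.16 (SE 0.11, adjusted p = 0.42), with 559, 507 and 470 overlapping 411, 467 and 497. Its dimmer probe gave another result, at 105, 106 and 102 against 71.2, 69.0 and 67.3, a difference of -0.59 that passed when every probe was tested on its own (adjusted p = 0.016). After quantile normalization the bright probe turned to 0.13, so no direction can be given for Serpinc1 from it.

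Serping1, the C1 inhibitor, which restrains complement and the contact system, was at -0.33 (SE 0.10, adjusted p = 0.092), with 546, 530 and 471 against 381, 414 and 431. Its other 2 probes gave -0.40 and -0.47 and passed when every probe was tested on its own (adjusted p = 0.043 and 0.036). Quantile normalization left Serping1, by its brightest probe, at -0.05 (adjusted p = 0.73). Vtn, vitronectin, an adhesive protein that blocks insertion of the membrane attack complex, fell by 0.54 (SE 0.12, adjusted p = 0.0457). Its signals were 527, 450 and 458 in corn oil livers and 289, 342 and 359 in treated livers. Every treated animal was below every corn oil animal for both. The Vtn call ended with quantile normalization (-0.33, adjusted p = 0.093), with median centring (adjusted p = 0.056) and without any 1 animal (adjusted p from 0.078 to 0.12).

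Of the 18 members with more than 1 probe, Masp1 was the 1 whose probes differed in sign, and the spread between probes of a member was at most 0.67. The brightest probe, which stood for the gene, gave the smallest change in 9 of the 18. With every probe tested on its own, an alternative chosen after seeing the data, 25 of 58 member probes passed, and 17 members had at least 1 probe lower. Over the whole array 3325 probes passed in this setting, and their share of all probes tested is not given. Members with several probes have more chances to be counted in this way.

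Other genes of both cascades came from 3 lists of 76 names, of which 56 were measured. In these lists 5 genes were lower, 2 were higher and 49 did not pass, and the median was -0.13. The complement list had a median of -0.01 with 0 lower and 1 higher of 25, the coagulation list -0.15 with 2 lower and 0 higher of 17, and the inhibitor list -0.10 with 3 lower and 1 higher of 14. Fgl1, fibrinogen-like 1, a protein secreted by hepatocytes, fell by 1.26 (SE 0.23, adjusted p = 0.029), from 112, 94.8 and 63.1 to 35.3, 43.3 and 32.4. Hgfac, the activator of hepatocyte growth factor, fell by 0.40 (adjusted p = 0.0475). Pzp, a relative of A2m, fell by 0.55 (adjusted p = 0.043), Serpina1, alpha-1-antitrypsin, by 0.50 (adjusted p = 0.023), and Cpn1, a carboxypeptidase that inactivates C3a and C5a, by 0.44 (adjusted p = 0.027). Pzp and A2m belong to a gene family with similar sequences, and whether their probes tell them apart was not tested.

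Itgb2, the beta chain of the leukocyte receptors for C3 fragments, rose by 0.55 (SE 0.09, adjusted p = 0.021), and the lymphocyte and neutrophil marker sums given above were higher in treated livers. Tfpi2, a Kunitz-type inhibitor and the 1 counted as higher in the inhibitor list, was not well above background in corn oil livers. It was at least 1.32-fold higher, a bound against the lowest signal above background on each corn oil array. It was tested only because its treated signals were well above background. That favours a higher call, so the call is no support for a rise. C1qa, C1qb and C1qc, which macrophages make, were at 0.06, 0.16 and 0.05 (adjusted p = 0.79, 0.44 and 0.77). F8, factor VIII, which endothelium makes, was at -0.22 (adjusted p = 0.28). C4bpb, the partner chain of C4bpa, was at -0.62 (adjusted p = 0.068), and C4a at -0.46 (adjusted p = 0.12), and whether its probe tells C4a from its near copy C4b was not tested.

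**Figure D4:**
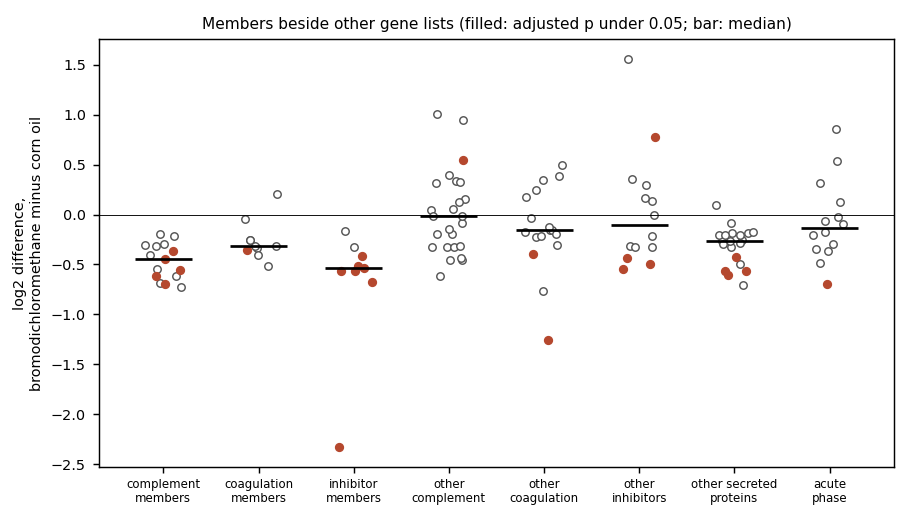
Log2 difference, bromodichloromethane minus corn oil, of each measured gene of the members' 3 role groups and of 5 other lists, on the scale of the 75th percentile of the array. Filled points passed an adjusted p of 0.05 and bars are medians, which are -0.45, -0.31 and -0.54 for the members and -0.01 to -0.26 for the other lists, while with spike-in scaling all 5 other medians lie above 0. The value of Tfpi2 rests on corn oil signals not well above background, and it was tested only because of its treated signals.

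Vitamin K is needed to finish F2, F7, F9, F10, Proc and Pros1. Of the 3 genes of its cycle, Vkorc1l1 rose by 0.39 (SE 0.09, adjusted p = 0.0471), and Ggcx, the carboxylase, and Vkorc1, the main reductase, were at 0.13 and -0.18 (adjusted p = 0.66 and 0.23). Among 16 measured regulators of liver secretion, 1 was lower, 1 was higher and 14 did not pass, with a median of -0.10. Il6r, the interleukin-6 receptor, fell by 0.76 (SE 0.15, adjusted p = 0.032), from 7.22, 9.79 and 7.39 to 4.82, 4.37 and 5.14. Osmr, the oncostatin M receptor, was the 1 counted as higher, by at least 2.07-fold, since no corn oil signal was well above background. It was tested only because its treated signals were well above background. That favours a higher call, so the call is no support for a rise. Stat3, which carries the interleukin-6 signal, was at 0.08, Cebpb at -0.61 and Hnf4a at 0.19 (adjusted p = 0.78, 0.15 and 0.42).

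Other secreted hepatocyte proteins gave a median of -0.26, with 4 of 20 lower and 0 higher, and 19 of 20 below 0. Itih1 fell by 0.61, Apoa2 by 0.57, Agt by 0.57 and Itih3 by 0.43 (adjusted p = 0.020, 0.036, 0.022 and 0.0469), whereas Alb, albumin, was at -0.25 (adjusted p = 0.16). Acute phase genes had 1 of 14 lower and 0 higher, with a median of -0.13. Apcs, serum amyloid P and a relative of Crp, fell by 0.70 (SE 0.09, adjusted p = 0.014), from 130, 112 and 116 to 72.9, 74.3 and 73.4. At an unadjusted p of 0.05 the 2 lists had no gene in the higher direction except Lcn2, at 0.54 (adjusted p = 0.0545). With spike-in scaling both medians turned, to 0.23 and 0.35. Whether the members differ from these lists was not tested.

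**Figure D5:**
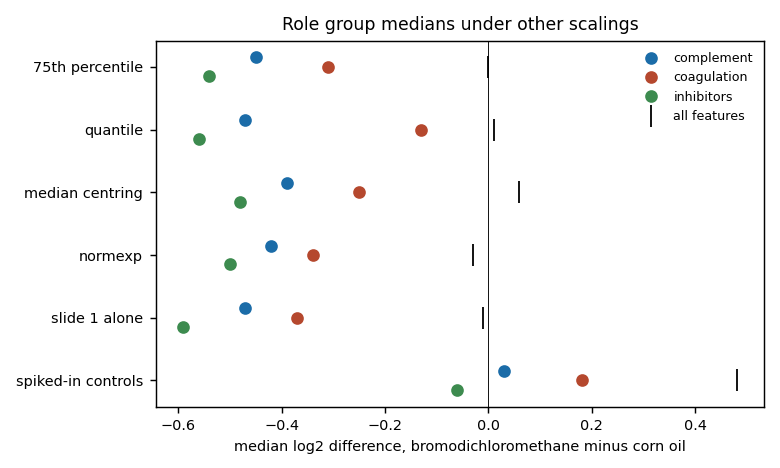
Median log2 difference, bromodichloromethane minus corn oil, of the 3 role groups and of all features under 6 treatments of the values. The medians of the role groups lie below that of all features in each. Median centring and spike-in scaling each move the differences of all genes by the same amount. They therefore cannot change the gap to all features and are no check of it. With the spiked-in controls complement and coagulation lie above 0, at 0.03 and 0.18, and inhibitors at -0.06.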

How the data were processed

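Total RNA of rat liver was labelled with Cy3 and hybridised to 6 Agilent arrays, 3 per group. The deposited scanner files hold processed signal intensity per spot from Agilent Feature Extraction 10.7, per the file headers and the submitters' processing notes, background-subtracted and on a linear scale. The authors' deposited value table holds the ratio of that signal to the 75th percentile of its array, with column medians of 0.0954 to 0.102. Of the values checked, 100.0% lay within 1%, and the dimmest values were left out of this check. Here, log2 of the processed signal minus the 75th percentile of each array over non-control probes was used, after 1319 control spots and 27 flagged probes were left out. Probes had to be called well above background by the scanner in every animal of at least 1 group. Accessions were matched without versions to RefSeq (GRCr8), which named 27460 of 61657 probes with 1 symbol, 0 with several and 34197 with none; the brightest probe stood for a gene. The groups were compared with limma 3.58.1 (lmFit and eBayes) in R 4.3.3, with Benjamini-Hochberg adjustment over 28995 features, and the script was tested on simulated data. Precision is limited by having 3 arrays per group.

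The members and lists were chosen with earlier results of these data known. All measured members are named; of other lists, those past the threshold (at most 6). Klkb1 array by array, and C1qa, C1qb, C1qc, F8, C4bpb, C4a, Ggcx, Vkorc1, Stat3, Cebpb, Hnf4a, Alb and Lcn2, were chosen after their values were seen. Thbd and Procr were also chosen in this way. Alternatives were other scalings, background corrections, filters, probe summaries, limma options, slide and replicate blocks and leaving out each animal. The normexp correction used median signals, since the files hold no mean signals. Letters were searched in the 250 bases before each start, not in the bases after it. One gene of the regulator list and its promoter letters are not reported here.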

Additional observations from a re-analysis of the deposited data

How the results depend on the processing

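All alternatives kept the median of the members below 0 except spike-in scaling. The main count of 13 lower members was 8 with median centring, where 74.2% of all calls were higher against 63.6% in the main analysis. Spike-in scaling gave 1 lower and 1 higher member, 13249 features called (97.6% higher) and a member median of 0.07. No filter on dim probes gave 609 features and 1 lower member, and limma's trend and robust options gave 20. Slide 2 held treated animals only, so the fits with slide as a block and on slide 1 alone both rest on treated replicate 1, assumed in the latter to vary like the controls. The block gave 350 features (54.0% higher) and 1 member (A2m), and slide 1 alone gave 120 features (43.3% higher) and 0 members, with 23 at an unadjusted p of 0.05. Leaving out 1 animal gave 335 to 1232 features and 0 to 7 lower members; without treated replicate 2, 49.6% of calls were higher. The replicate block gave 353 features and 0 lower members by limma. The correlations of same-numbered animals' deviations were 0.092, 0.019 and 0.117, so the numbers were not taken as pairs, although every array correlated best with its own number, a hint from the data and not the design. Signs turned for F7 with normexp (0.04) and median centring (0.02), for Serpinc1 with quantile normalization (0.13), and for Klkb1 without corn oil replicate 2 (-0.01) or treated replicate 1 (-0.23), within a range of -0.23 to 0.68 over the fits without 1 animal. Spike-in scaling turned the medians of coagulation (0.18) and complement (0.03), and C3 (0.19), C8a (0.07), C9 (0.18), C2 (0.29), Cfb (0.03), Cfi (0.18), Mbl1 (0.12), Masp2 (0.27), F2 (0.15), F7 (0.44), F9 (0.17), F10 (0.12), F12 (0.24), Fgb (0.23), Fgg (0.07), Plg (0.18), Proc (0.06), Serpinc1 (0.32) and Serping1 (0.15). The cause of these changes was not tested. All 34 measured members were well above background on every array.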
